A study of Mus musculus with 4 samples.

Results

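Mitochondrial ribosomal protein genes are nuclear genes for the proteins of the ribosome that works inside mitochondria. They were taken as all gene names in the count files that begin with Mrpl or Mrps followed by a digit, with pseudogene names (those holding -ps) left out, which gave 77 of 32531 names. Of these, 48 carry a large subunit symbol (Mrpl) and 29 a small subunit symbol (Mrps). The libraries hold ribosome-bound RNA from the deep cerebellar nuclei of adult Slc17a6-TRAP mice of line JX883, which carry an EGFP-tagged Rpl10a, a protein of the large subunit of the cytosolic ribosome. Slc17a6, after which the line is called, is the gene of a glutamate transporter on the synaptic vesicles of excitatory neurons, and the labels do not say which cells of the nuclei carry the tag. All 4 libraries are immunopurified samples of untreated animals and form 1 group, each from 3 pooled mice. The sample titles carry the bracketed numbers 1300, 1301 and 1302 for replicates 1 to 3 and 1476 for replicate 4. What these numbers count is not said in the titles. There is no input RNA, second cell type or second condition, so the comparisons are between genes within libraries, between large and small subunit genes, and between replicate 4 and the libraries of consecutive numbers. The labels do not say how animals were divided among libraries, so p-values measure the spread between these libraries, which may be technical.

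Mitochondria keep a small genome that codes for a few subunits of the respiratory chain and the ATP synthase, and those subunits are made on mitochondrial ribosomes. The RNAs of that ribosome come from mitochondrial DNA, whereas all of its proteins are encoded in the nucleus, translated on cytosolic ribosomes and imported. The tag on the cytosolic ribosome therefore captures messages for mitochondrial ribosomal proteins, not the mitochondrial ribosome itself. The large subunit joins amino acids and holds the stalk and the peptide exit tunnel, and the small subunit reads the message. Some of the proteins have counterparts in bacterial ribosomes and others are found only in mitochondria. Neurons draw most of their ATP from respiration, and loss of a mitochondrial ribosomal protein in humans can cause combined respiratory chain disease.

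Reads assigned to named genes numbered from 9621762 to 10988373 per library, so the limit that 3 counts set was between 0.273 and 0.312 CPM (counts scaled to 1000000 per library). Slc17a6 itself stood at 2143 ± 153 CPM and the pan-neuronal Snap25 at 20122 CPM (mean, n = 4). The 4 microglia markers summed to between 3.64 and 9.19 CPM, with C1qa at 0 counts in every library and Csf1r at 4.02 CPM on average. Summed markers of inhibitory neurons, Purkinje cells, granule cells, astrocytes and oligodendrocytes were above the microglia sum and below Slc17a6 in every library. Each of these sums was highest in replicate 3. Inhibitory neuron markers summed to 114, 173, 369 and 72.3 CPM and Purkinje cell markers to 208, 349, 690 and 117 CPM in replicates 1 to 4. In such bulk RNA, fewer cells of a type and less RNA per cell cannot be told apart. Counts were divided by the union exon length of each gene and scaled to 1000000 per library to give TPM (transcripts scaled to that total). Levels of different genes were then compared per length, a choice on which the level of the list depended, as given below.

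Most mitochondrial ribosomal protein genes were present in the ribosome-bound RNA at levels above that of the middle gene. A mean of at least 10 counts was reached by 74 of the 77 genes, 47 of the large and 27 of the small subunit, and 73 had at least 1 CPM in every library. The median mean level was 52.4 TPM over these 74 genes, against 23.1 TPM over all 13071 genes tested. Each gene's log2(TPM + 0.5) was set against the median of all genes tested in the same library with the moderated test of limma, two-sided, with Benjamini-Hochberg adjustment over all genes tested and a threshold of 0.05. Of the 74 genes, 47 were above the median, where 36.6% of all genes tested were called, and 10 were below it, where 36.4% were called. The other 17 did not pass the test. The median difference from the library median was 1.07 on the log2 scale over the 74 genes, against -0.06 over all genes. The genes spanned a 57.3-fold range of mean TPM, with 29 in the upper quartile of all genes tested and 3 in the lower quartile. Without division by length 21 of the 74 genes were above, where 38.2% of all genes were, and 14 below, where 38.4% were, with a median difference of 0.08. The median principal transcript of these genes had 1324 bases, against 3168 bases over all genes tested.

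**Figure D1:**
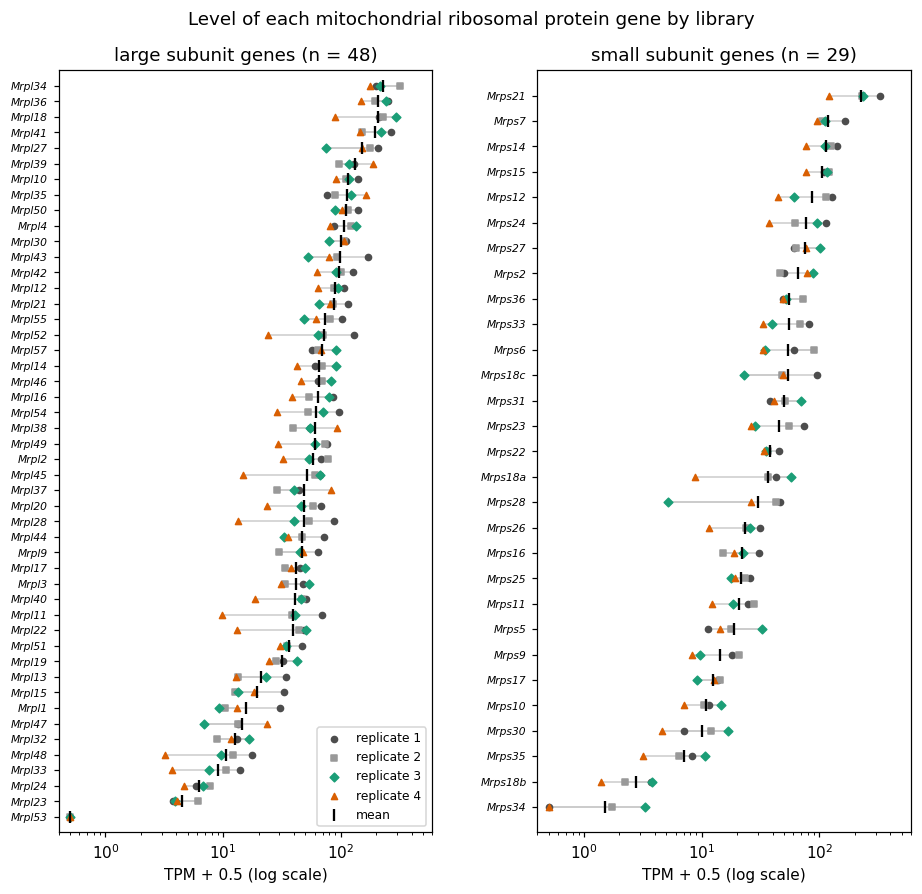
Each row is 1 gene, with large subunit genes on the left and small subunit genes on the right, ordered by mean level. Points are the 4 libraries, the black tick is their mean and the horizontal axis is TPM + 0.5 on a log scale; the means run from 227 TPM for Mrpl34 to 0 TPM for Mrpl53, and the orange triangle of replicate 4 lies furthest left for 45 of the 74 genes tested.

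The large subunit gene of highest level was Mrpl34, which encodes a protein with a bacterial counterpart. It had 199, 319, 215 and 175 TPM in replicates 1 to 4, a mean of 227 ± 63.7 TPM (SD, n = 4), and lay 3.27 ± 0.33 above the library median on the log2 scale (limma, adjusted p = 0.000115). Mrpl34 is a gene of 607 exon bases at chr8:71464959-71465747 on the plus strand. Mrpl36, another protein with a bacterial counterpart, had 250, 195, 239 and 147 TPM, with replicate 4 lowest. Mrpl18 had 88.0 TPM in replicate 4, against 212, 228 and 291 TPM in replicates 1 to 3, and a mean of 205 ± 84.9 TPM. Mrpl41, a protein that bacterial ribosomes lack, stood at 265, 150, 220 and 145 TPM. Mrpl27, which in bacteria reaches the peptidyl transferase centre, had 205, 176, 74.6 and 152 TPM, with replicate 3 lowest. All of these genes were above the library median (limma, adjusted p from 0.000112 to 0.0007), and all were 2.63 or more above it on the log2 scale. Without division by length Mrpl34 was only 0.36 and Mrpl27 0.43 above the median, and neither was called (limma, adjusted p = 0.186 and 0.238). Not every read need be unique to its gene, since 35.4% of the 50-base windows of the principal Mrpl27 transcript also occurred in transcripts of genes elsewhere, as did 13.8% of those of Mrpl41 and none of those of Mrpl34 and Mrpl36.

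Among small subunit genes Mrps21 led with 326, 230, 232 and 120 TPM, a mean of 227 ± 84.2 TPM (SD, n = 4), and lay 3.22 ± 0.52 above the library median on the log2 scale (limma, adjusted p = 0.000199). It lies at chr3:95862634-95871519 on the minus strand and encodes a protein with a bacterial counterpart. Mrps7, whose bacterial counterpart sits in the head of the small subunit, had 165, 104, 111 and 94.6 TPM. Mrps14 had 139, 125, 111 and 75.7 TPM, and Mrps15 had 108, 121, 115 and 76.3 TPM. In these 3 genes replicate 4 was the lowest library. Mrps12, whose bacterial counterpart lines the decoding centre and is the target of streptomycin resistance mutations, had 126, 113, 60.5 and 44.0 TPM, so that its libraries fell into a higher and a lower pair. Mrps7, Mrps14, Mrps15 and Mrps12 were all above the library median (limma, adjusted p from 0.000288 to 0.00288). Without division by length Mrps21 stood at 0.60 and Mrps12 at -0.33 from the median, and neither was called (limma, adjusted p = 0.0752 and 0.337).

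At the low end stood 3 genes that did not reach a mean of 10 counts. Mrpl53, a large subunit protein found only in mitochondria, had 0 counts in every library, which allows up to 0.312 CPM in the shallowest of them. Mrps34 had 0, 5, 11 and 0 counts and Mrps18b 14, 7, 13 and 4 counts in replicates 1 to 4. Of the Mrpl53 exon bases, 88.0% overlap exons of other annotated genes that are not among the counted names. Of the Mrps34 exon bases, 77.8% overlap exons of other counted genes, and 30.9% of the 50-base windows of Mrps18b occur in transcripts elsewhere; reads that fall in such places can go uncounted, and their part in the low counts was not tested. Of the genes tested, Mrpl23 was lowest with 3.27, 5.56, 3.44 and 3.57 TPM, 2.39 ± 0.32 below the library median on the log2 scale (limma, adjusted p = 0.000283). For Mrpl23, 76.4% of windows occur elsewhere, all in its pseudogene copy Mrpl23-ps1, so its level is uncertain. Mrpl24, like Mrpl23 a protein of the rim of the exit tunnel, had 5.36, 7.28, 6.28 and 4.18 TPM and was 1.90 ± 0.23 below the median (adjusted p = 0.00049). Mrps35 had 7.84, 5.88, 10.1 and 2.68 TPM and Mrps30 had 6.53, 11.5, 16.1 and 4.10 TPM, both lowest in replicate 4. Mrps35 was 1.82 ± 0.65 and Mrps30 1.36 ± 0.72 below the median (adjusted p = 0.00235 and 0.00951). Mrpl48 had 17.0, 11.6, 9.14 and 2.72 TPM and was 1.35 below the median, a call that was lost without replicate 3 (adjusted p = 0.0548), by the length of the principal (0.0524) or longest transcript (0.0839) and without division by length (0.219).

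Sequences upstream of the genes are shown for the leading gene of each subunit, for Mrps12 and Mrpl42, and for Mrpl45, whose values stand apart in replicate 4. Each is the RefSeq window on GRCm38.p6 from 250 bases before to 50 bases after the annotated start, 5′ to 3′ on the strand of the gene. Capitals mark matches, on either strand, to CCGGAAG (the core of ETS family sites such as that of GABPA), GCGCA, any base and then GCGC (NRF1), AAGATGGCG (YY1), CCAAT or TATAAA. The windows are chr8:71464676-71464975 (plus strand) for Mrpl34, chr3:95871465-95871764 (minus) for Mrps21, chr7:28741772-28742071 (minus) for Mrps12, chr10:95501900-95502199 (minus) for Mrpl42 and chr11:97315466-97315765 (plus) for Mrpl45.
Mrpl34: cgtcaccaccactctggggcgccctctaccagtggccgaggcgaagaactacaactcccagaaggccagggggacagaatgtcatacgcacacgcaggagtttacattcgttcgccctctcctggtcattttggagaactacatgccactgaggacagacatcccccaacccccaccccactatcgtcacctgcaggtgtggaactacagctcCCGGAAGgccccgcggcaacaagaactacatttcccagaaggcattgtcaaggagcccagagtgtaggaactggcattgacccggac
Mrps21: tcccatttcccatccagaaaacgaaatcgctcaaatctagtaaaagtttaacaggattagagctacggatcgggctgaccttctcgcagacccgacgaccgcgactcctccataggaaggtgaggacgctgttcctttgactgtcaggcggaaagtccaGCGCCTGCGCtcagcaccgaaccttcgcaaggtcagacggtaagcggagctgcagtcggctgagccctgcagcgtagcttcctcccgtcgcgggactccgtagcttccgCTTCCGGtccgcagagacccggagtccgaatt
Mrps12: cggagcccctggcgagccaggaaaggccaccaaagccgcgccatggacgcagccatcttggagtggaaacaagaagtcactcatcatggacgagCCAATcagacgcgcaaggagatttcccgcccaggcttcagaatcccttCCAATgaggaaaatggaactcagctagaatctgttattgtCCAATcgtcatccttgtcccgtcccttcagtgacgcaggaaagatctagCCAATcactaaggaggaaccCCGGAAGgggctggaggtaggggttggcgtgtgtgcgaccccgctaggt
Mrpl42: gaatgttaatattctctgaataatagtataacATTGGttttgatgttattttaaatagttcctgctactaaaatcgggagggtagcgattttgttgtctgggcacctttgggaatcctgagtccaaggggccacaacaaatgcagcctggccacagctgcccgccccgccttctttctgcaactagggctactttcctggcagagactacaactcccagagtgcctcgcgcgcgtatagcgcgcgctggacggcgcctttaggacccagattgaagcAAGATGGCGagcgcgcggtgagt
Mrpl45: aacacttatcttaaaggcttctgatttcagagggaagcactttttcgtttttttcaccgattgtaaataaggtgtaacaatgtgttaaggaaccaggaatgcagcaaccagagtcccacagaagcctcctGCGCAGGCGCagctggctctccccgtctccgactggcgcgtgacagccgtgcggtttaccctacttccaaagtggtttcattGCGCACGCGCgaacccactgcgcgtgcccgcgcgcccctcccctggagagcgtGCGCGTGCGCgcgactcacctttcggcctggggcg

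Mrpl34 and Mrps21 each hold 1 ETS core, and Mrps21 also holds 1 NRF1 match. Mrps12 holds 4 CCAAT boxes and 1 ETS core, Mrpl42 1 YY1 match near the start and 1 CCAAT box on the opposite strand, and Mrpl45 3 NRF1 matches. A window was listed for 68 of the 77 genes. The ETS core occurred in 33.8% of these windows, in 17.5% of the 9942 windows of genes tested and in 9.17% of all 27025 windows listed. NRF1 and YY1 regulate many nuclear genes for mitochondrial proteins. The NRF1 motif occurred in 19.1% of the windows of the mitochondrial ribosomal protein genes, against 10.4% of windows of genes tested, and the YY1 motif in 11.8%, against 3.13%. The CCAAT box was at 39.7%, against 38.6%, and the TATA box at 5.88%, against 6.74%. Large subunit windows held the NRF1 motif in 23.8% and the ETS core in 31.0%, and small subunit windows held them in 11.5% and 38.5%. Median GC content was 58.2% in the windows of the mitochondrial ribosomal protein genes, against 61.3% in those of genes tested. Matches are letters in a window and were not measured as binding.

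Genes of known place in the ribosome did not share 1 level. The stalk, which recruits translation factors, contains the products of Mrpl10, Mrpl11 and Mrpl12. Mrpl10 had 140, 110, 118 and 90.8 TPM and Mrpl12 had 107, 86.7, 94.5 and 63.4 TPM in replicates 1 to 4. Both were above the library median by more than the spread of the libraries (limma, adjusted p = 0.000237 and 0.000489), and the protein of Mrpl12 is present in several copies per ribosome. Mrpl11 had 68.0, 38.1, 40.5 and 9.34 TPM. With this range between libraries it was not called (adjusted p = 0.352), and without replicate 4 it was 1.004 above the median (adjusted p = 0.0265). At the exit of the peptide tunnel, Mrpl23 and Mrpl24 were low as given above, while Mrpl45 and Mrpl44 were near the middle of the list. Mrpl45, whose protein ties the ribosome to the inner membrane, had 14.2 TPM in replicate 4, against 66.3, 59.8 and 65.5 TPM in replicates 1 to 3, and was not called over the 4 libraries together (adjusted p = 0.0694) but was above the median without replicate 4 (1.44 on the log2 scale, adjusted p = 0.00364). Mrpl44 had 71.5, 45.8, 32.5 and 35.0 TPM and was 0.95 ± 0.51 above the median (adjusted p = 0.0181), a call lost without replicate 1 (adjusted p = 0.0686) or replicate 2 (adjusted p = 0.0729).

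Some symbols do not match the place of the protein. Mrps30 and the Mrps18a protein belong to the large subunit, and Mrps36 encodes a component of the 2-oxoglutarate dehydrogenase complex. Mrps18a had 42.4, 36.3, 56.7 and 8.30 TPM, with replicate 4 apart from the others. Its relatives Mrps18c and Mrps18b belong to the small subunit. Mrps18c had 94.3, 47.6, 22.4 and 48.6 TPM, with replicate 3 lowest, and was 1.05 ± 0.89 above the median (limma, adjusted p = 0.0417). The Mrps18c call was lost when replicate 1, 2 or 4 was left out (adjusted p from 0.112 to 0.153). Mrps36 had 48.6, 72.0, 51.1 and 48.8 TPM and was 1.25 ± 0.26 above the median (adjusted p = 0.00259), with 36.2% of its windows present in pseudogene transcripts.

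Large subunit genes were at a higher median level than small subunit genes in all 4 libraries. The median was 67.1 TPM for large and 45.7 TPM for small subunit genes in replicate 1, 57.0 and 45.3 TPM in replicate 2, 53.4 and 33.9 TPM in replicate 3, and 37.2 and 32.5 TPM in replicate 4. The difference of the medians, large minus small, was 0.55, 0.33, 0.65 and 0.19 on the log2 scale in replicates 1 to 4, with a mean of 0.43 ± 0.21 (SD, n = 4). Between 67.2 and 73.0% of the counts of all 77 genes belonged to the large subunit, which has 48 of them. Of 47 large subunit genes tested, 32 were above the library median, 5 below and 10 not called; of 27 small subunit genes tested, 15 were above, 5 below and 7 not called. No p-value is given for these medians because they are scores over chosen genes. The spread within each subunit was wide beside the difference between them, and the subunits overlapped over most of their range in every library. The difference was 0.37 when genes were sorted by the place of the protein rather than the symbol, 0.33 over the 45 genes with a bacterial relative, and 0.30 by principal transcript length.

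**Figure D2:**
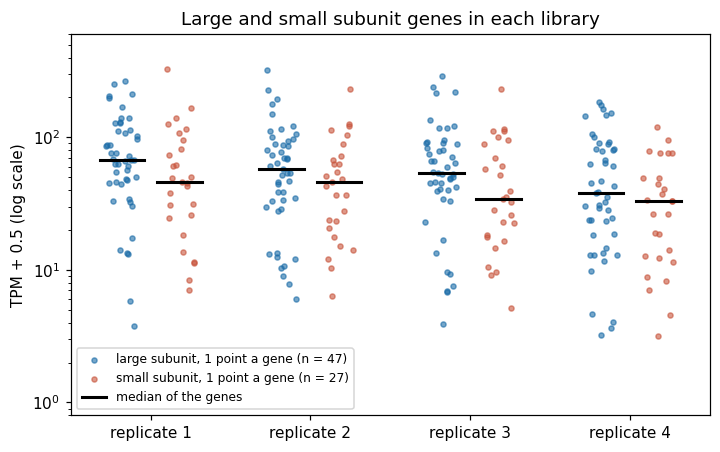
Each point is 1 gene in 1 library, with large subunit genes left of small subunit genes, and black bars are medians; the vertical axis is TPM + 0.5 on a log scale. The large subunit median is higher in each library, by 0.19 on the log2 scale in replicate 4 and by up to 0.65 in replicate 3, while the points overlap.

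Levels of single genes depended on which length was used. Union exon length counts every exon of every annotated transcript, and it was 1.37 times the principal transcript length in the median mitochondrial ribosomal protein gene (1.30 for large and 1.51 for small subunit genes), against 1.32 over all genes tested. The order of the 74 genes by the 2 lengths was alike, with a Spearman rho of 0.79 across genes, which are not independent replicates. By principal transcript length Mrpl42 was first with 345 ± 94.9 TPM, against 95.2 ± 26.5 TPM by union length, and Mrpl30 reached 219 TPM, against 100.4 TPM. Mrpl42 had 127, 100.4, 91.0 and 62.6 TPM in replicates 1 to 4 by union length. Mrpl33 stood at 84.9 TPM by principal and 8.46 TPM by union length, and Mrps10 at 53.9 TPM by principal and 10.4 TPM by union length. Both turned from below to above the library median, Mrpl33 by 1.72 and Mrps10 by 1.21 on the log2 scale. Mrpl23 was 0.31 below the median by principal length and lost its call (adjusted p = 0.26), and Mrps18a was 1.82 above it (adjusted p = 0.00992). Mrps21 lay 3.22 above the median by either length. The count of genes above the median was 47 by either length.

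**Figure D3:**
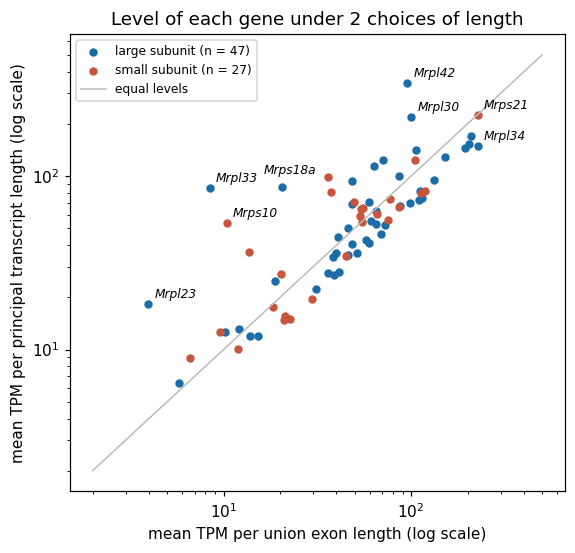
Each point is 1 of the 74 genes tested, with its mean TPM over 4 libraries by union exon length on the horizontal axis and by principal transcript length on the vertical axis, both on log scales; the line marks equal levels. Mrpl33, Mrps10 and Mrpl42 lie far above the line, and Mrps21 lies on it.

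The spread between libraries was close to that of other genes. The median SD of log2(TPM + 0.5) over the 4 libraries was 0.511 for the mitochondrial ribosomal protein genes (0.492 for large and 0.601 for small subunit genes), against 0.543 for all genes tested. Mrps22, of the small subunit, was steadiest with 44.6, 36.2, 34.8 and 33.2 TPM, an SD of 0.19 on the log2 scale. Mrpl30 followed with 111, 106, 79.2 and 105 TPM and Mrpl17 with 44.5, 33.3, 49.0 and 37.2 TPM. Mrps28 varied most, with 45.7, 42.6, 4.69 and 25.9 TPM from 74, 65, 7 and 43 counts, so its low library was replicate 3. The others of widest spread were Mrps18a and Mrpl11, whose low library was replicate 4. The highest library by TPM was replicate 1 for 41 of the 74 genes, against 25.1% of all genes tested, and the lowest was replicate 4 for 45, against 37.7%. Counts of all 77 genes summed to 2643, 1910, 1970 and 1639 CPM in replicates 1 to 4, and those of cytosolic ribosomal protein genes to 10438, 6832, 6035 and 4255 CPM.

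Replicate 4 was set against replicates 1 to 3 with edgeR's quasi-likelihood test, which leaves 2 residual degrees of freedom and assumes that the lone library varies like the others. No mitochondrial ribosomal protein gene was called in either direction at an adjusted p of 0.05, and of all 13724 genes tested 0% were called higher and 0% lower. At an unadjusted p under 0.05, 4 of the 74 genes were higher in replicate 4 (7.4% of all genes tested) and 7 were lower (8.01%). The fold change was negative for 60 of the 74, against 7453 of all 13724 genes, with a median of -0.40 on the log2 scale over the list (-0.38 for large and -0.59 for small subunit genes), against -0.10 over all genes. It was also negative for 76 of 80 cytosolic ribosomal protein genes (median -0.89) and 16 of 22 assembly factors of the mitochondrial ribosome (-0.38). All 6 tested subunit genes of other symbol were negative too (-0.45). Of 17 mitochondrial tRNA synthetases 10 were negative (-0.09), and 10 of 11 mitochondrial translation factors were positive (0.31). By TMM-scaled CPM, replicate 4 was below each other library for 37 genes, where 32.3% of all genes tested were, and above each for 7, where 30.6% were. DESeq2 called 3 genes lower, where 1.8% of all genes with an adjusted p were, and 0 higher, where 1.04% were.

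The 3 genes that DESeq2 called were Mrps18a, Mrpl45 and Mrpl11. Mrps18a had 6.43 TMM-scaled CPM in replicate 4, against 30.4, 25.5 and 39.0 in replicates 1 to 3, a log2 fold change of -2.30 ± 0.58 (SE) by edgeR, whose adjusted p was 0.214, while the adjusted p of DESeq2 was 0.0143. Mrpl45 had 7.71 TMM-scaled CPM in replicate 4, against 33.4, 29.6 and 31.7 in replicates 1 to 3 (edgeR adjusted p = 0.215, DESeq2 adjusted p = 0.0251). Mrpl11 had 6.33 in replicate 4, against 42.6, 23.4 and 24.3 in replicates 1 to 3 (edgeR adjusted p = 0.22, DESeq2 adjusted p = 0.0278). In each of these genes replicate 4 lay below all 3 other libraries without overlap. Those higher at an unadjusted p were Mrpl35, Mrpl37, Mrpl38 and Mrpl39, which lie on chromosomes 6, 4, 11 and 16. Mrpl37 had 76.3 TMM-scaled CPM in replicate 4, against 37.8, 24.1 and 33.0 in replicates 1 to 3 (edgeR adjusted p = 0.242). Mrpl35 had 142 in replicate 4, against 60.8 to 94.5 in replicates 1 to 3, Mrpl38 had 49.0, against 26.8, 18.6 and 25.7, and Mrpl39 had 98.6, against 63.5, 46.6 and 54.8 in replicates 1 to 3. The proteins of Mrpl37, Mrpl38 and Mrpl39 are found in the large subunit of mitochondria and not in bacteria, and that of Mrpl35 has a bacterial counterpart.

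The lower values in replicate 4 moved with transcript length across the whole transcriptome, though loosely for single genes. The Spearman rho between fold change and length was 0.23 over 13071 genes and 0.28 over the 74 genes, which are not independent replicates. Over all genes, the median log2 fold change of replicate 4 over replicates 1 to 3 was -0.98 for the 72 genes with a principal transcript under 500 bases, -0.77 between 500 and 1000 bases, -0.15 between 2000 and 3000 bases and 0.22 above 6000 bases. Mitochondrial ribosomal protein genes in the bins from 500 to 1000 and from 1000 to 1500 bases, 20 and 21 genes, had medians of -0.47 and -0.69, against -0.77 and -0.61 for all genes in those bins. The 3 genes under 500 bases had a median of -1.56, against -0.98. Between 1500 and 2000 bases the median was -0.26 over 6 genes, against -0.34, and between 2000 and 3000 bases -0.04 over 7 genes, against -0.15. Among longer transcripts the medians of the list were below those of all genes, at -0.22 over 8 genes from 3000 to 4000 bases, against -0.09, at -0.39 over 7 genes from 4000 to 6000 bases, against 0.05, and at -0.07 over 2 genes above 6000 bases, against 0.22. With the trend on length taken out of each library, a step chosen after seeing the data, the median fold change was -0.05 over the list, against -0.06 over all genes. Mrpl11, Mrpl45 and Mrps18a then had log2 fold changes of -2.19, -1.90 and -1.74 (edgeR adjusted p = 0.231, 0.229 and 0.268), and Mrpl37 one of 1.63 (adjusted p = 0.21). Marker sums moved with replicate 4 in both directions. Sums of inhibitory neuron, Purkinje cell and granule cell markers were lowest there, at 72.3, 117 and 258 CPM. The sum of choroid plexus and ependyma markers was also lowest there, at 4.64 CPM. The pan-neuronal sum was highest there, at 27600 CPM in replicate 4, against 19035 to 21960 CPM in replicates 1 to 3. Snap25 made up 24379 CPM of it in replicate 4. The glutamatergic sum was also highest there, at 2917 CPM, against 2351 to 2832 CPM. Sums for oligodendrocyte precursors (12.6 CPM), microglia (9.19 CPM) and blood (5.73 CPM) were also highest in replicate 4. Single markers did not all follow their sums. Rbfox3 (207 CPM), Slc17a7 (22.1 CPM) and Hbb-bs (0.637 CPM) were lowest in replicate 4. Lhx9 was highest in replicate 1, and Csf1r and Cspg4 in replicate 3. Calb1 and Neurod1 were lowest in replicate 1, at 30.5 and 51.3 CPM. The part of other cells in the fold changes was not tested.

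**Figure D4:**
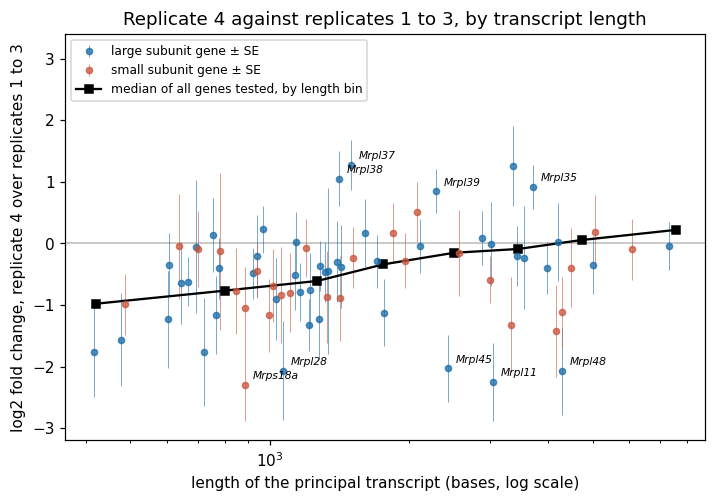
The log2 fold change of replicate 4 over replicates 1 to 3, with its SE, is plotted against principal transcript length (log scale) for each of the 74 genes, and black squares are medians of all genes tested by length bin. The medians run from -0.98 in the shortest bin to 0.22 in the longest, with Mrpl11, Mrpl45, Mrpl48 and Mrps18a below and Mrpl37, Mrpl38, Mrpl39 and Mrpl35 above.

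A feature that the choice of genes did not use was their position. A gene on the opposite strand started head to head within 1000 bases of 33 of the 77 genes (42.9%), against 15.4% of the 12623 protein-coding genes tested. This held for 24 of 48 large (50%) and 9 of 29 small subunit genes (31.0%). Exons overlapped those of another counted gene in 24 of the 77 (31.2%), against 22.0%. The pairs join the genes to partners of other functions and, once, to each other. Mrpl46 and Mrps11, at chr7:78775236-78783531 (minus strand) and chr7:78783119-78792989 (plus), share their start region, and their windows on GRCm38.p6, chr7:78783040-78783339 (minus) and chr7:78782881-78783180 (plus), overlap. They are shown because both proteins are of the mitochondrial ribosome, 1 of each subunit. Capitals mark motifs as before, here 1 TATAAA in Mrpl46 and 1 YY1 match in Mrps11.
Mrpl46: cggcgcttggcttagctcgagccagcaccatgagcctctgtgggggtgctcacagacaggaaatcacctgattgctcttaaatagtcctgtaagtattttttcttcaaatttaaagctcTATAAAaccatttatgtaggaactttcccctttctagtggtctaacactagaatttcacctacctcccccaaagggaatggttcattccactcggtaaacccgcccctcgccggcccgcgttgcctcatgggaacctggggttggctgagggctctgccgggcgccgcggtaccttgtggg
Mrps11: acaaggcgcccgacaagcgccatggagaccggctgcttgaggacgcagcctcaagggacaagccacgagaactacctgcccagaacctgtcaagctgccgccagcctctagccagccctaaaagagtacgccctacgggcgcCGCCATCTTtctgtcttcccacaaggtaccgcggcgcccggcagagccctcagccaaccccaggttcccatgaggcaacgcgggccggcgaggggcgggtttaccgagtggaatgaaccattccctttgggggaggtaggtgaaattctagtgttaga

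From that shared region the levels were unequal, with 62.9, 68.5, 82.7 and 45.0 TPM for Mrpl46 and 24.3, 27.1, 17.9 and 11.7 TPM for Mrps11 in replicates 1 to 4. Mrpl46 was higher in all 4 libraries. Mrpl46 was above the library median (1.47 on the log2 scale, limma adjusted p = 0.00137), and Mrps11 was not called (-0.22, adjusted p = 0.46). Exons of the pair overlap over 12.2% of the exon bases of Mrpl46 and 7.97% of those of Mrps11, and without known strand reads from there cannot be assigned.

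Of the 33 pairs, counted once for each mitochondrial ribosomal protein gene, 32 had a partner with a level. The mitochondrial ribosomal protein gene was higher in all 4 libraries in 20, and the partner was higher in all 4 in 8. Partners that are themselves mitochondrial included Ndufs6 beside Mrpl36 and Ndufb5 beside Mrpl47, which encode subunits of respiratory complex I, Twnk beside Mrpl43, the helicase of mitochondrial DNA, and Sars2 beside Mrps12, the mitochondrial seryl-tRNA synthetase. Mrpl36 had 208 TPM and Ndufs6 323 ± 104 TPM (mean, n = 4). Mrpl47 had 13.8 TPM and Ndufb5 121 ± 74.9 TPM. Mrpl43 had 98.3 TPM and Twnk, listed in the files as Peo1, 13.1 ± 5.20 TPM. Mrps12 had 86.0 TPM and Sars2 10.8 ± 5.87 TPM. The levels in these pairs differed in both directions. Exons of Twnk overlap 33.4% of the exon bases of Mrpl43, and those of Ndufb5 and Actl6a overlap 24.2% of those of Mrpl47. Without known strand, reads from such places cannot be assigned, which limits the levels of these pairs. Mrpl48 had 10.1 TPM and its partner Rab6a, a regulator of Golgi transport, 1412 ± 198 TPM. The median was 61.4 TPM over 31 tested genes with such a partner and 48.1 TPM over 43 without one.

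Other genes of mitochondrial translation were described for comparison. Against the 52.4 TPM of the mitochondrial ribosomal protein genes, the median level was 44.9 TPM for subunits of other name, 12.4 TPM for translation factors, 8.96 TPM for tRNA synthetases and 13.7 TPM for assembly factors. Of all genes tested, 36.6% were called above the library median and 36.4% below it, the shares beside which the following counts stand. Of 7 subunit genes whose symbol is not Mrpl or Mrps, 6 were in the files, and 3 were above the library median and 0 below. Aurkaip1 led with 131 ± 38.9 TPM, then Chchd1 with 96.2 ± 42.2 TPM and Ict1, a peptidyl-tRNA hydrolase of the large subunit, with 51.9 ± 6.58 TPM, while Dap3, which binds GTP in the small subunit, had 33.7 ± 11.8 TPM and was not called (limma, adjusted p = 0.12). Of 11 mitochondrial translation factors, 2 were above the library median, Gfm1 at 43.1 TPM and Mtif2 at 36.6 TPM, and 5 were below. Gfm1 is the elongation factor that moves the ribosome along and Mtif2 the initiation factor that places the first tRNA. Guf1 was lowest of them with 1.47 ± 0.23 TPM. Of 17 mitochondrial tRNA synthetases, 1 was above and 12 were below the median. The 1 above was Lars2, with 1720, 4571, 3592 and 2239 TPM in replicates 1 to 4, and the ribosomal RNA precursor Rn45s took 4.99, 14.2, 13.6 and 4.92% of counts in the same libraries. The part of that RNA in the Lars2 value was not tested. Of 22 assembly factors in the files, 3 were above, Ngrn at 80.2 TPM, Eral1 at 53.0 TPM and Noa1 at 48.4 TPM, and 10 were below. Of the cytosolic ribosomal protein genes, 75 of 80 tested were above the median and 0 below, with a median of 169 TPM.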

How the data were processed

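Each deposited file lists raw counts by gene name, per the labels and the file layout, for a single library, without molecular identifiers, so limits from counts cover counting error only. The submitters' processing notes name STAR 2.0.0e, HTSeq and the build mm10; annotation, strand setting and kit were not given in the sources used here. Summary rows were left out of library sizes. Reads with no feature were 14.1 to 21.1% and ambiguous reads 2.04 to 2.94% of all counted reads. Alignments that were not unique were 14.2 to 20.6%, and a row named unknown held 0 counts. Polysomes had been captured with anti-EGFP antibodies on beads, per the labels' protocols.

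From these counts TPM was computed with union exon lengths from GENCODE mouse release 21 (same build), found for 23880 names (73.4%); names without a length, Rn45s among them, are in no TPM. Levels were tested with limma 3.58.1 on log2(TPM + 0.5), a scale that understates the fold of low genes, and replicate 4 with edgeR 4.0.16 (TMM, robust glmQLFit) in R 4.3.3, both over genes with a mean of at least 10 counts. A called gene had an adjusted p under 0.05. DESeq2 1.42.0, other lengths, pseudocounts, filters and scalings, and leaving out each library, were alternatives. The fits were also run on simulated data that gave every gene the same dispersion and held no length trend, unlike these libraries. Windows of 50 bases were compared with all transcripts of that annotation.

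The genes, lists and tests were chosen with earlier results of these data known. Named are the 5 highest and 5 lowest genes of each subunit, the 3 of largest and smallest spread and genes with a library at 0. Also named are those of known place, called genes and some genes of the mitochondrial comparison lists, not both ends of each. Mrpl42, Mrpl46 and Mrps11, partners in head-to-head pairs, the Mrpl genes with an unadjusted p under 0.05 and genes far from their group in 1 library are outside that rule, picked once their values had been seen.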

Additional observations from a re-analysis of the deposited data

Results flagged for a closer look

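In 6 of the 74 genes 1 library lay far from the other 3, by Dixon's ratio of the gap to the range of log2(TPM + 0.5), beyond the critical value for 4 samples. That is 8.11% of these genes, against 6.44% of all genes tested, and chance flags about 1 group in 20. Replicate 4 was low for Mrpl45 (ratio 0.933), Mrpl22 (0.909) and Mrpl40 (0.895). Mrpl22 had 12.5 TPM in replicate 4, against 47.8, 43.9 and 49.7 TPM in replicates 1 to 3, and Mrpl40 had 18.2 TPM in replicate 4, against 49.96, 46.6 and 45.0 TPM in replicates 1 to 3. Replicate 3 was low for Mrpl30 (0.851). Replicate 2 was high for Mrps36 (0.874) and Mrpl23 (0.837), the genes of the list with the largest shares of windows found in transcripts elsewhere (36.2 and 76.4%). That share was 33.4% for Mrpl22, which was low in replicate 4, and 35.4% for Mrpl27, which was not flagged. The part of shared sequence in these values was not tested.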

How the results depend on the processing

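No paired analysis was possible because the libraries form 1 group. The count of genes above the library median was 21 of 74 without division by length, where 38.2% of all genes were. Without a filter on low counts it was 74 of 77, where 43.8% of all genes were. When a library was left out it was between 36 of 74 (without replicate 1) and 50 of 75 (without replicate 4). Of all genes, 31.6 to 35.5% were above in those fits. With a mean of at least 50 counts it was 32 of 71, where 36% of all genes were. With genes whose exons overlap another gene left out it was 32 of 51, where 36.6% of all genes were. In the other settings it was 44 to 48 of 74 genes, where 36.3 to 37% of all genes were. The count below was 2 of 77 without a filter, where 44.1% of all genes were. It was 16 of 71 with a mean of at least 50 counts, where 35.7% were. When a library was left out it was 8 to 11 of 74 or 75, where 30.6 to 33.9% were. The median difference was 0.081 without division by length, 4.01 without a filter, 0.55 with at least 50 counts and 0.95 to 1.25 when a library was left out. Filters move the library median itself, since without one most names have few or no counts. Large minus small stayed positive in every setting run, from 0.30 to 0.54. For replicate 4, edgeR called 0 genes lower, DESeq2 3 and edgeR without a filter 2 (0.936% of all genes there); the median fold change was -0.053 with the length trend taken out and -0.41 to -0.48 when replicate 1, 2 or 3 was left out.

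Without division by length Mrps12 (-0.33), Mrps18c (-0.99), Mrps36 (-0.57), Mrpl44 (-0.50), Mrpl52 (-0.60) and Mrpl46 (-0.21) turned below the median. Of these, Mrps18c was called (limma, adjusted p = 0.0371) and the others were not (adjusted p from 0.0508 to 0.407). In that setting Mrpl34 (0.36), Mrpl27 (0.43), Mrps21 (0.60), Mrps22 (0.50), Mrpl12 (0.34) and Mrpl38 (0.47) stayed above the median but lost their call (limma, adjusted p from 0.064 to 0.238). Without a filter Mrpl48 (1.68), Mrpl33 (1.51), Mrpl24 (1.13), Mrpl23 (0.64), Mrps10 (1.90), Mrps30 (1.67), Mrps35 (1.21), Mrps28 (3.02) and Mrps11 (2.81) turned above it, and by principal transcript length Mrpl33 (1.72) and Mrps10 (1.21) did. Mrps22, Mrpl37 and Mrpl52 lost their call above the median without replicate 1 (adjusted p = 0.0842, 0.0953 and 0.0615), and Mrps22 and Mrpl52 without replicate 2 (0.0853 and 0.0638). Mrpl37 also lost it without replicate 3 (0.0589) or replicate 4 (0.0598), and Mrpl28 gained a call without replicate 4 (0.0197). Mrpl53, Mrps34 and Mrps18b had at most 14 counts in a library, and depth and overlapping or repeated sequence both limit their levels.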
